A study of Mus musculus with 8 samples.

Results

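The cells described here were those annotated as endothelial (Endo) in the striatum of WT and *Setd1a*+/- mice, 1998 of the 14690 annotated striatal cells and of 23687 annotated cells in the whole series. They were selected by the deposited annotation alone, for which the study used markers specific to each cluster. *Cldn5*, *Flt1* and *Ly6c1* are taken here as the marker genes of the selection. *Setd1a* encodes a histone methyltransferase that deposits H3K4me3 at promoters, and the study asked how losing one copy alters expression in each cell type of prefrontal cortex (PFC) and striatum, regions linked to schizophrenia. The 4 striatal libraries were made by 10x single-cell RNA sequencing, 2 from WT and 2 from *Setd1a*+/- mice, and the PFC was profiled in the same way. All animals were male C57BL/6N mice, and each library pooled the tissue of 2 of them. The sample labels give an age of 8 to 10 weeks. The methods of the study name an older age for the animals dissociated, and which of these holds was not settled here. The *Setd1a*+/- mice carried one allele with a CRISPR-Cas9 frameshift just before the SET domain, the catalytic part of the protein, in every cell of the body, and the WT mice were littermates without it. The sample labels call the tissue nucleus accumbens, whereas the study describes dorsal and ventral striatum together. No cell was sorted, so the selection could hold any cell of the vessel wall.

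Brain endothelial cells line the vessels and form the blood-brain barrier. They are held together by tight junctions built on claudin-5, they carry glucose, amino acids and other nutrients by dedicated transporters, and they pump many foreign compounds back into the blood. Wnt signals from the surrounding brain keep the barrier program on, and VEGF, Tie and Notch signals shape the vessels. Pericytes and smooth muscle cells wrap the same vessels, share their basement membrane, and often stay attached to endothelial cells when tissue is dissociated.

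The sequences before the start sites of the marker genes of the selection, and of *Spp1*, the gene with the lowest genotype p value below, are shown because each gene was read at far higher levels in these cells than in nearly all other striatal types. Each runs 5′ to 3′ on the strand of its gene, from 250 bases before to 50 bases after the start (RefSeq, GRCm38.p6). The capitals mark AGGAAG or its reverse complement CTTCCT, the core of many binding sites of the ETS family, whose members *Ets1* and *Erg* were read in these cells. The windows are chr16:18776597-18776896 (plus strand, *Cldn5*), chr5:147725962-147726261 (minus strand, *Flt1*), chr15:75048788-75049087 (minus strand, *Ly6c1*) and chr5:104434861-104435160 (plus strand, *Spp1*).
Cldn5: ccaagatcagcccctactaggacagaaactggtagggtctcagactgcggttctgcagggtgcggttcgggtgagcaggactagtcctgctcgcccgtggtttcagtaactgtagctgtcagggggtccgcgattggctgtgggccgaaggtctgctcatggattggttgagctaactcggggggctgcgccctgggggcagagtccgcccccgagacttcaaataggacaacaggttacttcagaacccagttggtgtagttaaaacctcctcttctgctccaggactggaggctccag
Flt1: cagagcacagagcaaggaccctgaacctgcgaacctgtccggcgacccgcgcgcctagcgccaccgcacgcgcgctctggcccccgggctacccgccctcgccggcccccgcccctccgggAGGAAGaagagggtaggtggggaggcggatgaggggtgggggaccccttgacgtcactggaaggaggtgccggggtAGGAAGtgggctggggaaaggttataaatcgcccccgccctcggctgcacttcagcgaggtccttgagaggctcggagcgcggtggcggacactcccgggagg
Ly6c1: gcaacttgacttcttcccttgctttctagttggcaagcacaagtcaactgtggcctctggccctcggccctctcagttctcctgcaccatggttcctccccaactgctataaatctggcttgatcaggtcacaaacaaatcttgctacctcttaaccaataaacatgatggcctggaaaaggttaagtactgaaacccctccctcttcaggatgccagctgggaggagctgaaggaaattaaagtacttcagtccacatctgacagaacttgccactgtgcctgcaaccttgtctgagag
Spp1: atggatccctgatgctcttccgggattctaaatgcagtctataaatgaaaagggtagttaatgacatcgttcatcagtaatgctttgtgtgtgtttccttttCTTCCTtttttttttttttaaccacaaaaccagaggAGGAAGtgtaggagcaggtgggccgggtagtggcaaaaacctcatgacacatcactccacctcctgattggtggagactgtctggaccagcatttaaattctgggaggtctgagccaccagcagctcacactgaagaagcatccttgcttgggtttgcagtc
The *Flt1* and *Spp1* windows each held 2 matches, and the *Cldn5* and *Ly6c1* windows held 0. Over 19407 promoters of the same length, 34.8% held the hexamer on either strand, so a match was common. The GC content was 58.3% for *Cldn5*, 70.7% for *Flt1*, 49% for *Ly6c1* and 45.3% for *Spp1*. Among the 20 genes most restricted to the endothelial cells (named below), 10 had a promoter in the table, and 1 of them, *Spaar*, held the hexamer.

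The 4 libraries differed in size. The striatal matrices held 17440876 to 26277553 UMIs (unique molecular identifiers, which count captured RNA molecules), and the endothelial cells contributed 1655673 and 1520282 UMIs in the WT libraries and 1815027 and 549145 UMIs in the *Setd1a*+/- libraries (replicate 1 and 2 in turn, an order kept throughout). *Setd1a*+/- replicate 2 stood apart, with 238 endothelial cells against 521 to 632 in the others, a median of 2082.5 UMIs per cell against 2327 to 2592, and 6.84% mitochondrial UMIs against 5.02 to 5.22%. The same library also held 67 oligodendrocytes against 514 to 947, and 31 astrocytes against 214 to 354. Levels are given as CPM, the UMIs of a gene per 1000000 UMIs summed over the endothelial cells of a library, and a count of 0 allows up to 3 UMIs. Between 10 and 24 barcodes were shared by pairs of striatal libraries, of which 2 were endothelial in both, in WT and *Setd1a*+/- replicate 1.

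Levels of the marker genes of the selection matched the label. *Cldn5*, which encodes the main claudin of the barrier, was at 3098 and 2301 CPM (WT) against 2732 and 1102 CPM (*Setd1a*+/-). *Flt1*, a VEGF receptor, was at 1790 and 1552 CPM (WT) against 1835 and 1468 CPM (*Setd1a*+/-). *Ly6c1*, a surface antigen of brain endothelium, was at 4434 and 3733 CPM (WT) against 4733 and 2387 CPM (*Setd1a*+/-). The lowest value of each came from *Setd1a*+/- replicate 2, and the ranges of the genotypes overlapped for *Cldn5*, *Flt1* and *Ly6c1*. The type with the next highest mean was microglia, at 218, 136 and 321 CPM, which gave ratios of 10.6, 12.2 and 11.9. Reads of *Ly6c1* and of its near copies cannot be fully told apart. Since the annotation was drawn from the same counts, differences between types are descriptions and carry no test.

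**Figure D1:**
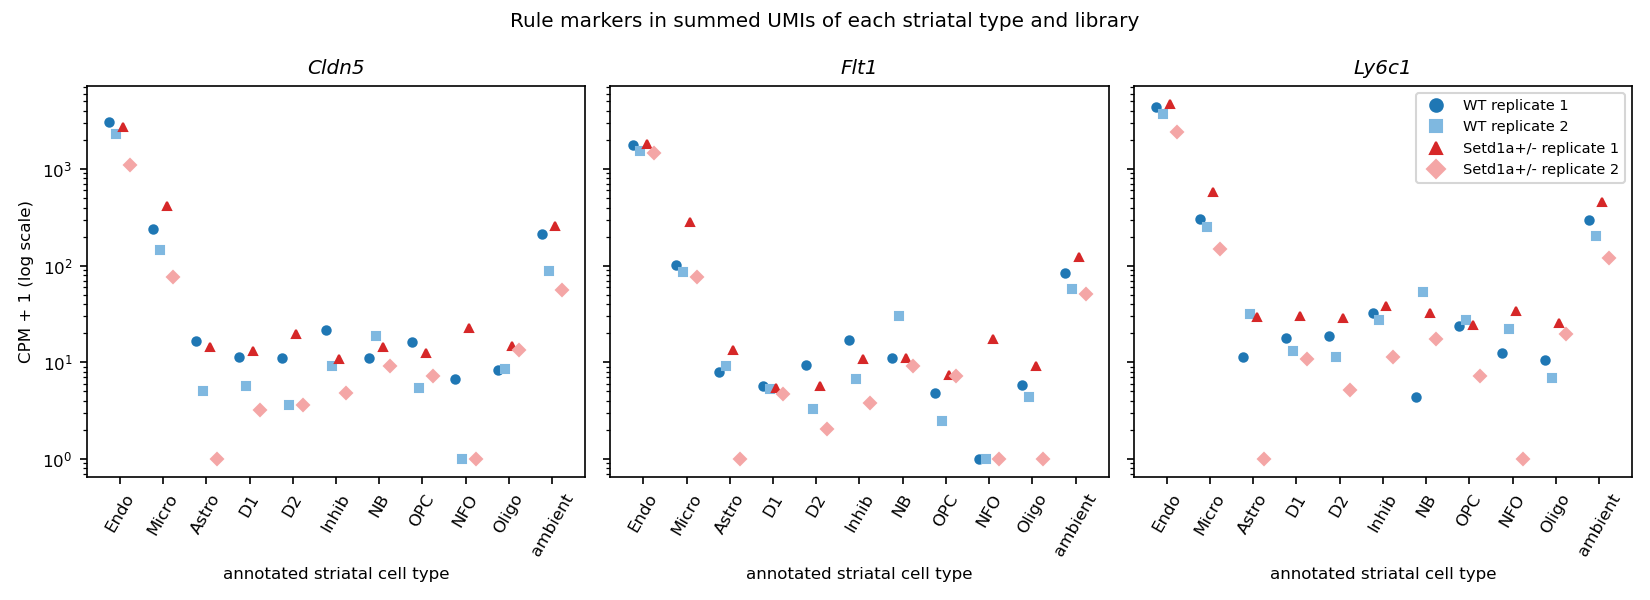
Level of *Cldn5*, *Flt1* and *Ly6c1* as CPM + 1 on a log axis (vertical) in each annotated striatal type and in the ambient RNA of near-empty droplets (horizontal), with a point for each of the 4 libraries. The endothelial points lie above 1000 CPM in every library, microglia and ambient RNA come next, and *Setd1a*+/- replicate 2 is the lowest endothelial point in each panel.

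The cells that carried these transcripts were nearly all of those selected. At least 1 *Cldn5* UMI was found in 95.4% of the endothelial cells, *Flt1* in 91.1%, and *Ly6c1* in 98.3%. After every cell was thinned to 1000 UMIs, the shares were 84.0%, 74.0% and 93.3%, against 0.692%, 0.384% and 1.56% in the 3904 D1 medium spiny neurons (MSNs), which should lack them (median UMIs 2379 in the endothelial cells and 3167 in the D1 MSNs). The thinned share of *Cldn5* was 88.3% and 83.5% in WT and 87.3% and 65.5% in *Setd1a*+/- libraries, so that the last library again stood apart. Of the 15 endothelial markers, all 15 were highest in the endothelial cells among the 10 striatal types, with a median ratio of 13.7 to the next type, whereas 20.4% of the 10358 genes tested were highest there and the median ratio of all genes was 0.53. The same 15 of 15 held after leaving out each library in turn. *Cdh5*, encoding VE-cadherin of the adherens junctions, was at 288 ± 14.3 CPM (SD, n = 4), 20.4 times the next type. *Pecam1*, an adhesion molecule of endothelial junctions, was at 383 ± 14.0 CPM (SD, n = 4), 12.9 times the next type.

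The genes most restricted to these cells came from several cells of the vessel wall. Among 2696 genes at 50 CPM or more in every library, 119 exceeded every other type by more than 10-fold (112 to 135 when a library was left out). The 20 with the largest ratios were *She*, *Gkn3*, *Foxq1*, *Spaar*, *Pdgfd*, *Higd1b*, *Ndufa4l2*, *Paqr5*, *Podxl*, *Edn3*, *Adamts1*, *Cdh5*, *Slc38a5*, *Ptprb*, *Wfdc1*, *Rasd1*, *Clic5*, *Mmrn2*, *Mgp* and *Gm13861*, at 43.7-fold to 18.8-fold. *She*, an adaptor protein gene, was at 104 and 66.4 CPM (WT) against 105 and 115 CPM (*Setd1a*+/-), 43.7 times microglia. *Foxq1*, a forkhead transcription factor gene, was at 142 and 162 CPM (WT) against 162 and 182 CPM (*Setd1a*+/-), 37.8 times microglia. *Higd1b* and *Ndufa4l2*, which mark pericytes, were at 695 ± 66.9 and 580 ± 28.8 CPM (SD, n = 4), 26.7 and 25.0 times microglia. Endothelial and pericyte genes thus stood in the same list. The membership of the 20 was less stable than their direction: 13 and 15 of the 20 stayed after leaving out WT replicate 1 and 2, and 9 and 11 after leaving out *Setd1a*+/- replicate 1 and 2.

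Genes of the barrier itself were concentrated in these cells. Of 22 barrier transporters, 19 were highest in the endothelial cells (median ratio 4.35). *Slc2a1*, the glucose transporter of the barrier, was at 1276 and 1268 CPM (WT) against 1563 and 954 CPM (*Setd1a*+/-), 8.71 times astrocytes. *Slco1a4*, an organic anion transporter, was at 2044 ± 326 CPM (SD, n = 4) and *Abcb1a*, the drug efflux pump P-glycoprotein, at 451 ± 25.1 CPM, 13.3 and 16.9 times microglia. The 3 exceptions were *Slc38a3*, *Slco2b1* and *Mfsd2a*, the lysolipid transporter of the barrier, which was at 125 ± 51.0 CPM and at 176 CPM in oligodendrocyte progenitors. Junction genes divided, with 14 of 17 highest here (median ratio 2.86). *Ocln*, encoding occludin, was at 213 ± 19.4 CPM (9.82 times astrocytes), *Cgnl1* was 13.8 times and *Lsr*, a gene of tricellular junctions, 12.9 times the next type, whereas *Cldn12*, *F11r* and *Jam3* were higher in another type. *Plvap*, the diaphragm gene of leaky vessels, was at 3.02 and 4.60 CPM (WT) against 1.10 and 5.46 CPM (*Setd1a*+/-), and at 48.6 CPM in the type annotated inhibitory.

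Signaling and transcription factor genes followed the same pattern. In the list of VEGF, Tie, Notch and TGF-beta ligands and receptors, 20 of 23 were highest in the endothelial cells (median ratio 6.16), with *Nrp2*, *S1pr1* and *Unc5b* as exceptions. *Kdr*, the main VEGF receptor, was at 302 and 279 CPM (WT) against 274 and 251 CPM (*Setd1a*+/-), 15.9 times the next type. In the Wnt list, 15 of 18 were highest here (median ratio 4.48). *Lef1*, a nuclear effector of Wnt signals, was at 344 ± 21.6 CPM (SD, n = 4; 13.3 times), and *Adgra2*, the Wnt7 coreceptor, at 53.0 ± 9.83 CPM (9.76 times). *Tspan12*, a coreceptor subunit, was at 125 ± 34.1 CPM and at 128 CPM in oligodendrocyte progenitors, a gap within the spread of the libraries. Of 23 endothelial transcription factors, 22 were highest here (median ratio 6.53), *Etv6* excepted. They included *Klf2* and *Klf4*, which respond to blood flow, at 533 ± 46.5 and 714 ± 82.8 CPM, and *Foxf2*, at 85.6 ± 9.11 CPM.

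Gene groups with roles in most cells varied. Glycolysis genes were highest in the endothelial cells in 1 of 18 cases, *Slc2a1* itself, with a median ratio of 0.25. Chaperones (4 of 12, median ratio 0.54), cytoskeleton genes (11 of 24, 0.88), H3K4 methyltransferase complex genes (3 of 21, 0.78) and H3K4 demethylases (2 of 12, 0.66) had fewer of their members highest here than elsewhere. Against the 20.4% of all genes, the shares were above the background for chaperones (33.3%) and cytoskeleton genes (45.8%), and below it for the H3K4 lists (14.3% and 16.7%). Immediate early genes were highest in the endothelial cells in 18 of 20 cases (median ratio 6.22). *Fos*, which responds rapidly to stimulation, was at 4763 and 5269 CPM (WT) against 4491 and 3946 CPM (*Setd1a*+/-), 7.98 times microglia, and *Hspa1a*, an inducible chaperone, was at 1491 ± 248 CPM (SD, n = 4; 11.8 times).

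The selection was a mixture of vessel cells. Leiden clustering of the 1998 cells gave 13 subclusters. The largest, subcluster 5, held 414 cells, was endothelial-like, and was led by *Slc38a5*, *Car14*, *Car4* and *Ctla2a*, with the highest summed level of the 15 endothelial markers (34283 CPM). Subcluster 10 held 158 endothelial-like cells led by *Gkn3*, *Bmx* and *Alpl*, genes of arterial endothelium. Subcluster 0 held 188 endothelial-like cells led by immune and acute response genes (*Lrg1*, *Lcn2*, *Vcam1*, *Cxcl1*, *Cxcl2*, *Ptgs2*, *Il1r1* and *Icam1*) and by *Vwf*. Subcluster 7 held 406 pericyte-like cells led by *Kcnj8*, *Ccl11* and *Vtn*, and subcluster 1 held 251 smooth muscle-like cells led by *Acta2*, *Tagln* and *Myh11* but also by *Dcn*, a fibroblast gene, and *Gkn3*. These leading genes defined the subclusters and are no finding about them. Subclusters 0, 5 and 10 were called endothelial-like for their summed endothelial markers, since 0 and 10 had none of these among their 20 leading genes.

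Arterial, capillary and venous gene lists were highest in different subclusters. The subclusters were drawn from these same counts, and the venous list holds *Lcn2* and *Slc38a5*, leading genes of subclusters 0 and 5. The values below are therefore descriptions and were not tested. How many of all genes were highest in each subcluster was not counted. The summed level of 15 arterial genes was 2.34 times that of all endothelial cells in subcluster 1 and 2.00 times in subcluster 10, and 9 and 4 of the 15 genes were highest there. Capillary genes were at 1.53 times in subcluster 5, with 5 of 10 highest there. Venous genes were at 2.16 times in subcluster 0, with 7 of 11 highest there, at 1.79 times in the unnamed subcluster 4 (17 cells) and at 1.70 times in subcluster 5. *Gkn3*, an arterial gene, was at 948 and 991 CPM in subclusters 1 and 10 against 20.5 to 67.2 CPM in subclusters 0, 5 and 7. *Vwf*, which encodes the clotting factor stored in larger vessels, was at 522 CPM in subcluster 0 against 69.4 to 180 CPM in subclusters 1, 5, 7 and 10. *Vtn*, a pericyte gene, was at 5226 CPM in subcluster 7 and at 188 and 203 CPM in subclusters 5 and 10, and *Acta2*, the actin of smooth muscle, was at 290 CPM in subcluster 1 and at 0 in subclusters 5, 7 and 10.

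The mural subclusters also held endothelial transcripts. *Cldn5* was at 2755 CPM in the pericyte-like and 1854 CPM in the smooth muscle-like subcluster, against 4345 CPM in subcluster 5. In thinned cells, *Cldn5* was found in 82.2% of cells with a *Vtn* UMI and in 86.1% of the others, and in 63.5% of cells with an *Acta2* UMI and 84.8% of the others. Of all thinned endothelial cells, 97.5% held at least 5 UMIs of the endothelial markers and 51.8% at least 5 of the pericyte markers. No subcluster therefore held pericyte transcripts free of endothelial ones, and whether droplets with more than 1 cell contributed was not tested. A finer clustering gave 18 subclusters and one on fewer components gave 11.

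**Figure D2:**
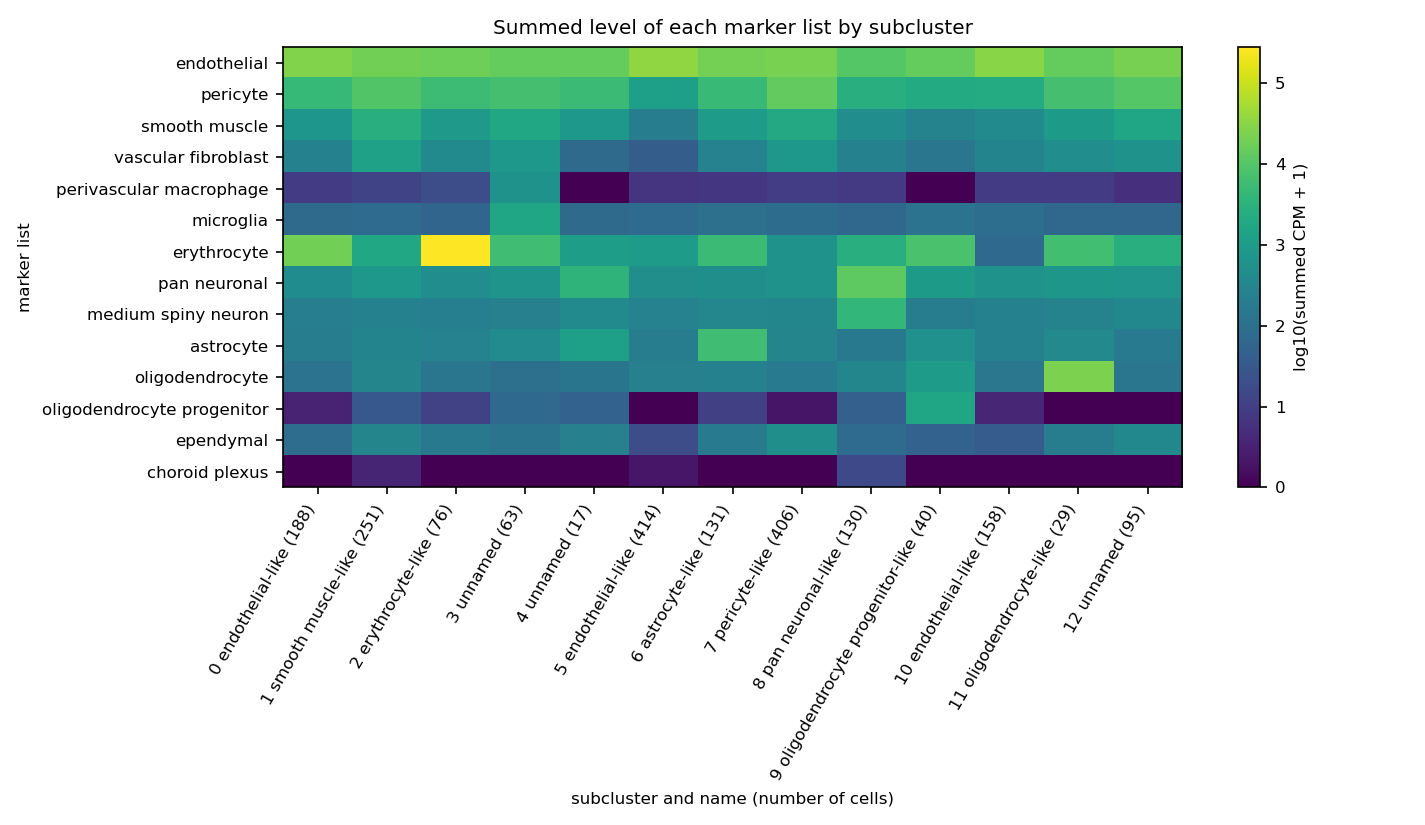
Summed level of each marker list (rows), as log10 of summed CPM + 1 (color), in the 13 subclusters of the striatal endothelial cells (columns, with their names and numbers of cells). The endothelial row is high in every column, from 9974 CPM in subcluster 8 to 34283 CPM in subcluster 5, and the pericyte row runs from 1180 CPM in subcluster 5 to 13768 CPM in subcluster 7.

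Other subclusters carried transcripts of cells outside the vessel wall. They were erythrocyte-like (subcluster 2, 76 cells), astrocyte-like (subcluster 6, 131 cells), neuron-like (subcluster 8, 130 cells), oligodendrocyte progenitor-like (subcluster 9, 40 cells) and oligodendrocyte-like (subcluster 11, 29 cells). Subclusters 3 (63 cells, led by *Igkc*, *Ccl5*, *Igha* and *Cd74*, genes of immune cells), 4 (17 cells, led by *Dcx*, *Sox11* and *Tubb3*) and 12 (95 cells, led by *Spry2* and *Slc39a1*) were left unnamed. The leading genes of subcluster 3 also included the macrophage genes *Lyz2*, *Mrc1*, *Pf4*, *C1qa* and *Csf1r*. Its perivascular macrophage markers summed to 639 CPM and its microglial markers to 1651 CPM. All 145 *Igha* UMIs of WT replicate 2 came from 1 cell. Summed over all endothelial cells, the 8 pan-neuronal markers stood at 1395 to 2375 CPM per library, below the 5702 to 6450 CPM of the ambient RNA in droplets with 1 to 100 UMIs. The 10 MSN markers stood at 356 to 1036 CPM against 5378 to 7239 CPM in ambient RNA, and the 7 oligodendrocyte markers at 98.3 to 1407 CPM against 1882 to 6806 CPM. Astrocyte markers (320 to 794 CPM) were close to ambient levels (439 to 784 CPM). The subclusters named by these markers stood above ambient RNA, at 12315 CPM (pan-neuronal, subcluster 8), 5935 CPM (astrocyte, 6) and 23754 CPM (oligodendrocyte, 11). The MSN markers were at 4038 CPM in subcluster 8, below ambient RNA. The part of ambient RNA in any of these levels was not tested. The 5 erythrocyte markers, which include the near-identical globin genes *Hba-a1* and *Hba-a2*, stood at 14239 to 23954 CPM, above the 1048 to 2244 CPM of ambient RNA. Microglial markers were at 91.4 to 168 CPM, and choroid plexus markers at 0 to 4.60 CPM.

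Endothelial cells made up 13.9% (95% Wilson interval 12.9 to 15.0) and 12.9% (11.9 to 14.0) of the annotated cells in the WT libraries and 16.7% (15.5 to 17.9) and 9.54% (8.45 to 10.8) in the *Setd1a*+/- libraries. The *Setd1a*+/- libraries lay on either side of both WT libraries. The means were 13.4 ± 0.72% and 13.1 ± 5.03% (SD, n = 2 each), and the exact two-sided permutation test gave p = 1, where 2 against 2 libraries cannot go below 0.33. A test of the cell numbers over the 10 types with edgeR gave a log2 difference of -0.03 (SE 0.86, adjusted p = 0.99). The estimate turned to 0.37 among non-neuronal types, to 0.31 without *Setd1a*+/- replicate 2 and to 0.02 without WT replicate 1, and was -0.49 without *Setd1a*+/- replicate 1. The intervals cover counting error only.

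Within the selection, the endothelial-like subclusters together held 36.4% and 45.9% of cells in WT and 35.1% and 32.8% in *Setd1a*+/- libraries. The smooth muscle-like subcluster held 9.88% and 10.2% in WT and 15.5% and 16.8% in *Setd1a*+/-, so the genotypes did not overlap. The pericyte-like subcluster held 22.9% and 16.5% in WT and 23.1% and 14.7% in *Setd1a*+/-, and overlapped. Subcluster 0 differed by replicate in both genotypes, at 7.25% and 11.9% in WT and 7.12% and 15.5% in *Setd1a*+/-. The oligodendrocyte-like subcluster held 0 of 238 cells in *Setd1a*+/- replicate 2, which allows a share of up to 1.26%, and 0.768 to 2.85% in the others. The genotypes did not overlap in 4 of the 13 subclusters (1, 2, 5 and 9), nor in the endothelial-like sum. Since subclusters were drawn from the same counts, these shares were not tested.

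**Figure D3:**
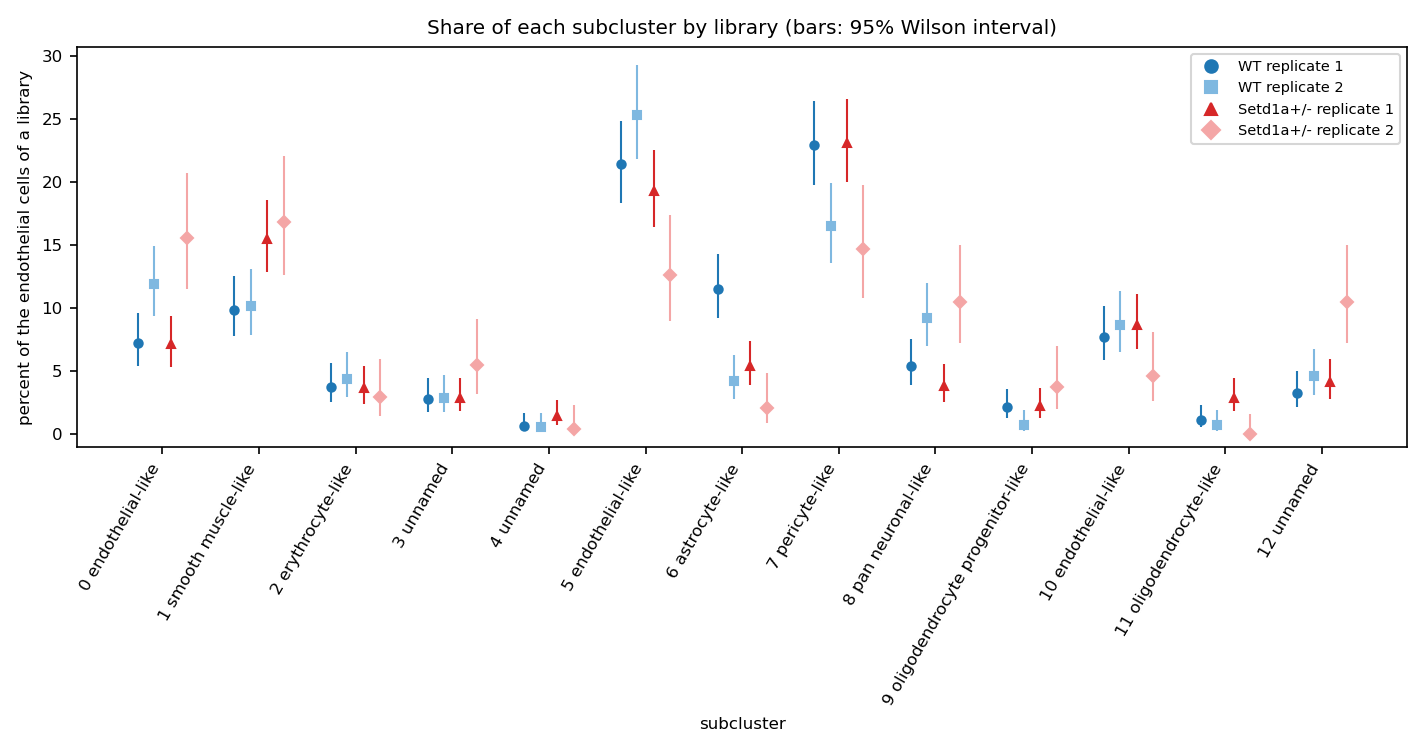
Share of the endothelial cells of a library (vertical axis, percent) in each of the 13 subclusters (horizontal axis), with a point for each library and bars for the 95% Wilson interval, which covers counting error only. The WT points of the smooth muscle-like subcluster sit at 9.88 and 10.2% and the *Setd1a*+/- points at 15.5 and 16.8%, whereas most other subclusters overlap between genotypes.

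*Setd1a* itself (chr7:127776670-127800122) was sparse in the endothelial cells. Its level was 14.5 and 19.1 CPM (WT) against 7.71 and 12.7 CPM (*Setd1a*+/-), from 24, 29, 14 and 7 UMIs. In ambient RNA it was at 17.2 to 27.2 CPM. The *Setd1a*+/- libraries lay below both WT libraries, but the difference did not pass the test (log2 difference -0.83, SE 0.42, unadjusted p = 0.078 in edgeR's fit). It was -0.36 without *Setd1a*+/- replicate 1 and -1.08 without replicate 2. The frameshift leaves the 3′ end of the gene in place, so these tags check the genotype only weakly.

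No gene passed the genotype test in the endothelial cells. With edgeR's quasi-likelihood test on UMIs summed per library, 0 of 10358 genes (0%) were called at an FDR under 0.05 and a fold change above 2, and the lowest FDR was 0.539. At an unadjusted p under 0.05 there were 229 genes (2.21%), 110 higher (1.06%) and 119 lower (1.15%) in *Setd1a*+/-, a split of 80 and 150 when library sizes alone scaled the counts. The genotypes did not overlap for 3167 genes (30.6%). DESeq2 called 1 gene, *Spp1*, and gave 44 genes below an unadjusted p of 0.05. The edgeR fit that paired the libraries by replicate called 25 genes (0.241%), 17 with a positive and 8 with a negative estimate. Leaving out a library, which leaves that genotype with 1 sample, gave, with the spread shared by all genes, 102 calls without *Setd1a*+/- replicate 1, 74 without *Setd1a*+/- replicate 2, 10 without WT replicate 1 and 8 without WT replicate 2. Of the 102 and the 74, 13 genes were shared and 5 of these had the same direction (*Bok*, *Igha*, *Igkc*, *Jchain* and *Spp1*).

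*Spp1* (chr5:104435118-104441050), which encodes the secreted phosphoprotein osteopontin, stood furthest from the rest. Its level was 59.8 and 61.2 CPM (WT) against 220 and 508 CPM (*Setd1a*+/-). Both *Setd1a*+/- libraries lay above both WT libraries, and within each replicate pair the *Setd1a*+/- library was the higher. The log2 difference was 2.59 (SE 0.37, unadjusted p = 5.2e-05, edgeR FDR 0.539), and with the replicate block, whose spread was shared by all genes, it was 2.49 (SE 0.18, edgeR FDR 3.7e-37). Within the pairs the log2 ratio of CPM + 1 was 1.86 and 3.03, a gap wider than that SE. Apart from the fits with such a common spread, *Spp1* was called with DESeq2 and with equal numbers of cells. It was also called with no filter, a fit whose lowest edgeR FDR of 2.4e-33 is too low for the degrees of freedom of the main fit. The spread of the no-filter fit was not examined. It was not called in the other alternatives. When a library was left out, the log2 difference ran from 1.89 to 3.10. In the subclusters named endothelial-like, pericyte-like or smooth muscle-like alone it was 2.49 (edgeR FDR 0.0856). In the endothelial-like ones alone it was 2.46, and *Spp1* was not called.

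The cells with *Spp1* transcripts were found in vessel and other subclusters. A *Spp1* UMI was found in 7.41% and 7.49% of endothelial cells in WT and in 20.6% and 46.6% in *Setd1a*+/- libraries, and after thinning to 1000 UMIs in 3.79%, 4.22%, 10.9% and 33.6%. In D1 MSNs the thinned share was 0.102%. In the pericyte-like subcluster the thinned shares were 3.60% and 5.81% in WT and 23.3% and 65.7% in *Setd1a*+/-, and in the endothelial-like subcluster 5 they were 0.769%, 0.758%, 2.46% and 6.67%. The endothelial-like subcluster 10 was at 2.13%, 0%, 1.82% and 18.2%, and the endothelial-like subcluster 0 at 4.55%, 11.3%, 15.6% and 43.2%. The smooth muscle-like subcluster 1 was at 10%, 9.43%, 11.2% and 17.5%. In *Setd1a*+/- replicate 2 the shares were also 56.0% in the unnamed subcluster 12, 24.0% in the neuron-like, 33.3% in the oligodendrocyte progenitor-like and 28.6% in the erythrocyte-like subcluster, the last 2 from 9 and 7 cells. No cell carried more than 19.4% of the *Spp1* UMIs of its library. Over all libraries *Spp1* was at 348 CPM in subcluster 7, 307 CPM in subcluster 12, 197 and 200 CPM in subclusters 0 and 1, and 15.0 CPM in subcluster 5. Among the other striatal types, microglia reached 129 CPM in *Setd1a*+/- replicate 1, from 29 UMIs, and the rest were at most at 12.2 CPM in any library.

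In cortical endothelial cells the order of *Spp1* differed. Its level was 21.5 and 459 CPM (WT) against 53.3 and 53.1 CPM (*Setd1a*+/-) PFC libraries, with WT replicate 2 far above the others. The log2 difference there was -2.10 (SE 1.09, unadjusted p = 0.090 in edgeR's fit). That WT library lay above the lower of the striatal *Setd1a*+/- libraries and below the higher.

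Genes higher in both *Setd1a*+/- libraries with the next lowest p values were mostly sparse. *Gm31409* was at 6.64 and 4.60 CPM (WT) against 16.5 and 27.3 CPM (*Setd1a*+/-) (log2 difference 1.85, SE 0.45). *Hebp1*, a heme-binding protein gene, was at 13.3 and 7.89 CPM against 52.3 and 16.4 CPM (1.89, SE 0.49), with 0.64 left without *Setd1a*+/- replicate 1. It was highest in oligodendrocytes among the striatal types (125 CPM) and stood at 59.9 to 67.3 CPM in ambient RNA, and *Setd1a*+/- replicate 1 also held the highest oligodendrocyte markers (1407 CPM summed). The part of these in its level was not tested. *Pdgfra*, a receptor gene of fibroblasts and oligodendrocyte progenitors, was at 11.5 and 5.92 CPM against 23.1 and 23.7 CPM (1.43, SE 0.40). It was highest in the oligodendrocyte progenitor-like subcluster 9 (372 CPM), which held 2.14% and 0.768% of the cells in WT and 2.22% and 3.78% in *Setd1a*+/-, and the part of this share in its level was not tested. The remaining ones were *Tbx3os1* (0.87), *Ccl5* (1.16), *Polk* (0.82), *Ccl2* (3.37), *Kansl1l* (1.10) and *Ccnd2* (0.66). *Tbx3os1* was highest in the unnamed subcluster 12 (254 CPM). Its log2 difference was 0.41 in the endothelial-like subclusters alone and 0.86 in the vascular ones. *Ccl2*, a chemokine gene, rested on few cells, since 31 of its 32 UMIs in *Setd1a*+/- replicate 2 and 11 of 15 in replicate 1 came from 1 cell each. *Ccl5* likewise had 34 of 104 UMIs in 1 cell of *Setd1a*+/- replicate 1. *Ccnd2*, which encodes a cyclin, was at 108 and 98.7 CPM (WT) against 154 and 168 CPM (*Setd1a*+/-) (SE 0.20) and was not called in any alternative. It was highest in neural stem cells and neuroblasts among the striatal types (5626 CPM), and stood at 74.2 to 132 CPM in ambient RNA. Its log2 difference was 0.12 in the endothelial-like subclusters alone and 0.60 in the vascular ones.

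*Slc38a5* (chrX:8271133-8280179), which encodes a glutamine transporter of the barrier, had the lower level in *Setd1a*+/- libraries. It was at 263 and 411 CPM (WT) against 205 and 169 CPM (*Setd1a*+/-). The genotypes did not overlap, but the WT libraries differed from each other by more than the nearest ones of the genotypes did. The log2 difference was -0.80 (SE 0.25, unadjusted p = 0.0097 in edgeR's fit, called in 0 of 16 alternatives). With the replicate block and its common spread it was -0.74 (SE 0.17, edgeR FDR 0.0062), a fold below 2. In subcluster 5, which *Slc38a5* itself led, its UMIs were found in 50.8% and 48.5% of thinned WT cells and in 29.5% and 26.7% of thinned *Setd1a*+/- cells. In subcluster 0 the shares were 34.1% and 45.2% against 24.4% and 37.8%, and the genotypes overlapped. Subcluster 5 held 21.4% and 25.3% of the endothelial cells in WT and 19.3% and 12.6% in *Setd1a*+/-, and the part of this share in the level of *Slc38a5* was not tested. In the PFC the endothelial values were 213, 309, 186 and 219 CPM, with a log2 difference of -0.32 (SE 0.27).

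Genes lower in both *Setd1a*+/- libraries with the other lowest p values were *Mrps34* (log2 difference -1.40), *Gadd45b* (-0.84), *Eif3j2* (-2.42), *2900055J20Rik* (-1.62), *Vil1* (-1.46), *Psmb9* (-0.72), *Gm42418* (-0.86), *Fbxl8* (-1.28) and *Zfp39* (-1.85). *Gadd45b*, a gene of the stress response, was at 71.9 and 67.1 CPM (WT) against 39.7 and 34.6 CPM (*Setd1a*+/-) (SE 0.22). *Psmb9*, a subunit of the immunoproteasome, was at 67.6 and 64.5 CPM against 40.8 and 36.4 CPM (SE 0.22). *Vil1*, which encodes the actin-bundling protein villin, was at 23.6 and 22.4 CPM against 9.92 and 3.64 CPM. For *Gadd45b*, *Psmb9* and *Vil1* the gap between genotypes exceeded the spread within each. The genes were chosen for a low p without overlap, which favors such a gap. *Eif3j2* has a near-identical copy and *Gm42418* overlaps ribosomal RNA sequence, so their counts are uncertain. *Eif3j2* ran from -3.66 without *Setd1a*+/- replicate 2 to -1.02 without replicate 1, *Vil1* from -2.60 without *Setd1a*+/- replicate 1 to -1.18 without replicate 2, and *Gm42418* from -1.40 without *Setd1a*+/- replicate 1 to -0.53 without replicate 2.

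**Figure D4:**
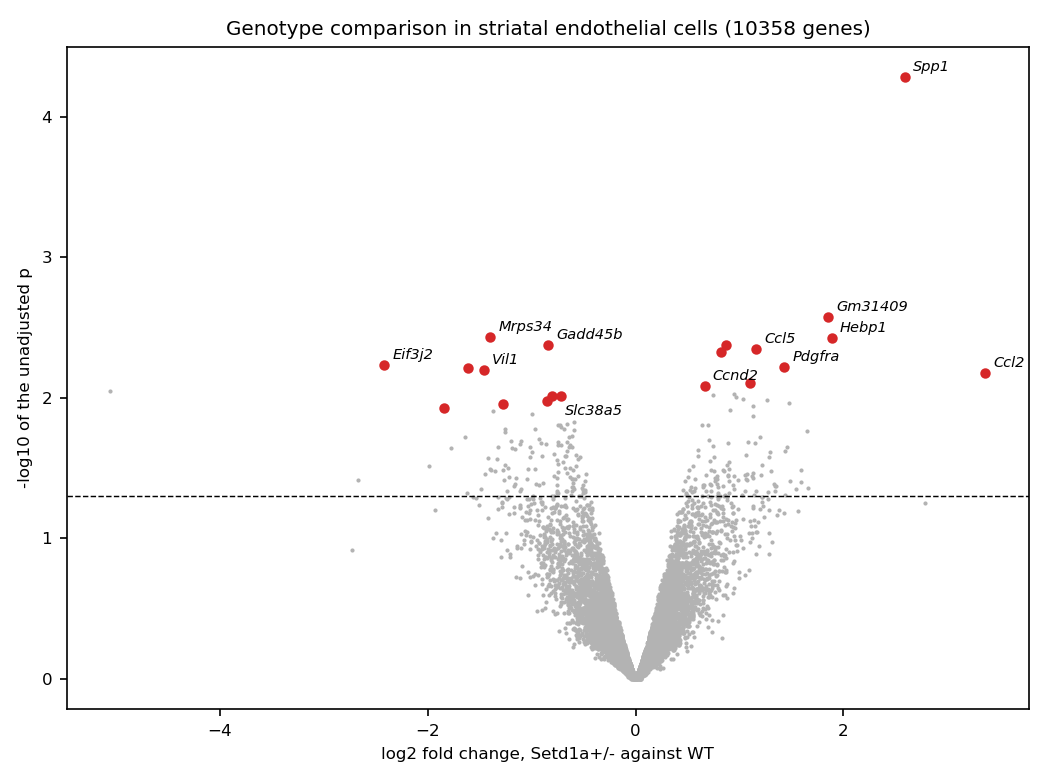
Genotype comparison over 10358 genes in striatal endothelial cells, with the log2 fold change of *Setd1a*+/- against WT on the horizontal axis and -log10 of the unadjusted p on the vertical axis. The dashed line marks 0.05. Red points are the 10 most significant genes in each direction among those whose genotypes did not overlap, and *Spp1* stands above all others at a log2 fold change of 2.59.

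The fit with the replicate block left 1 residual degree of freedom, and edgeR then gave all genes a common spread, so its p values do not measure the spread of the single gene. The 17 genes called with a positive estimate were *Spp1*, *Ccl2*, *Ccl5*, *Hebp1*, *Gm31409*, *Kansl1l*, *Per2*, *Notch2*, *Cd52*, *Npy*, *Emp1*, *Bhlhe41*, *Rpgrip1*, *Tpm3-rs7*, *Trf*, *Mobp* and *Gzma*. The 8 with a negative estimate were *Igkc*, *Lcn2*, *Eif3j2*, *Vil1*, *Bok*, *Cap1*, *Mrps34* and *Alad*. In 21 of the 25 both pairs moved the same way, and in *Mobp*, *Npy*, *Tpm3-rs7* and *Trf* the pairs moved in opposite directions. Several are genes of other cell types or were high in 1 library. *Mobp* and *Trf*, genes of oligodendrocytes, were at 41.7 and 58.6 CPM in WT replicate 1, 19.7 and 49.3 CPM in WT replicate 2, 122 and 192 CPM in *Setd1a*+/- replicate 1, and 5.46 and 32.8 CPM in *Setd1a*+/- replicate 2. *Igkc*, an antibody light chain gene, had 339 of its 370 UMIs of WT replicate 2 in 1 cell. *Tpm3-rs7*, a near copy of *Tpm3*, was at 98.3 CPM in *Setd1a*+/- replicate 2 and at 2.20 to 6.64 CPM in the others. *Bok*, a gene of the cell death machinery, was at 68.9 and 28.3 CPM (WT) against 23.1 and 16.4 CPM (*Setd1a*+/-) (log2 difference with the block -1.36, SE 0.29, edgeR FDR 0.0015). *Notch2* was at 10.9 and 23.7 CPM (WT) against 22.6 and 76.5 CPM (*Setd1a*+/-) (1.46, SE 0.31, edgeR FDR 0.0015), and its genotypes overlapped without regard to the pairs. It was highest in the unnamed subcluster 12 (127 CPM), which held 10.5% of the cells of *Setd1a*+/- replicate 2, and its log2 difference without the block was 1.35 in all cells and 0.41 in the vascular subclusters.

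Genes of the interferon response were mostly at lower levels in *Setd1a*+/- libraries, none past the test. Of 21 genes of interferon response and antigen presentation, 0 were called and the median log2 difference was -0.31, against -0.00 over all genes. In 11 of the 21 the genotypes did not overlap, all 11 lower in *Setd1a*+/-, against 17.6% of all genes lower without overlap. *Ifi27*, an interferon-induced gene, was at 458 and 393 CPM (WT) against 299 and 249 CPM (*Setd1a*+/-) (log2 difference -0.60, SE 0.20). *Irf7*, a transcription factor that drives interferon genes, was at 107 and 85.5 CPM against 65.6 and 67.4 CPM (-0.51, SE 0.22). *Ifnar2*, a subunit of the type I interferon receptor, was at 70.1 and 88.8 CPM against 52.9 and 45.5 CPM (-0.63, SE 0.23). These 3 were below an unadjusted p of 0.05, and none passed the adjusted test. In cortical endothelial cells the log2 differences were -0.12 (SE 0.23) for *Ifi27*, -0.04 (SE 0.24) for *Irf7* and -0.50 (SE 0.31) for *Ifnar2*. With the replicate block *Ifi27* had an edgeR FDR of 0.045 at a log2 difference of -0.60, a fold below 2, and was not called. *Ifi27* and *Irf7* were highest in the endothelial-like subclusters 5 and 10. The endothelial-like subclusters held 36.4 to 45.9% of the cells in WT and 32.8 to 35.1% in *Setd1a*+/-. In these alone *Ifi27*, *Irf7* and *Ifnar2* were at -0.51, -0.62 and -0.37, and the part of the share was not tested. The list's median stayed between -0.22 and -0.49 over the alternatives, and 17 to 20 of the 21 genes were below 0 in each. The list includes *Ly6a* and *Ly6c1*, which are also endothelial markers, and the list was chosen with earlier results of these data known.

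None of the 15 endothelial markers had an unadjusted p under 0.05 between genotypes. They had a median log2 difference of -0.14, which ran from -0.34 without *Setd1a*+/- replicate 1 to 0.04 without *Setd1a*+/- replicate 2 over the alternatives, and single members ran from -0.46 to 0.24. *Cldn5* was at -0.46 (SE 0.36), *Ly6c1* at -0.17 (SE 0.30), *Flt1* at 0.02 (SE 0.20) and *Pecam1* at -0.01 (SE 0.18). The medians were 0.07 for pericyte genes, 0.19 for smooth muscle genes, 0.09 for junction genes, 0.06 for Wnt genes, -0.10 for VEGF, Tie and Notch genes, 0.16 for transcription factors and 0.02 for barrier transporters, each with 0 genes called. Of 8 smooth muscle genes tested, 4 were higher and 1 lower in *Setd1a*+/- without overlap, against 13% and 17.6% of all genes. *Acta2*, the actin of smooth muscle, was at 61 and 23 CPM (WT) against 72.7 and 71 CPM (*Setd1a*+/-), with a log2 difference of 0.79 (SE 0.38), and *Myh11*, the smooth muscle myosin heavy chain, at 26.6 and 27.0 CPM against 36.9 and 34.6 CPM (0.46, SE 0.26). The smooth muscle-like subcluster, which *Acta2* and *Myh11* themselves led, held a larger share of the *Setd1a*+/- libraries, as given above. The share and the levels come from the same counts, and the part of the share in the levels was not tested. Of the H3K4 methyltransferase complex genes, 1 of 21 was under an unadjusted p of 0.05, *Kmt2b* (0.79, SE 0.34), and of 12 demethylases, 1, the corepressor gene *Rcor1* (0.79, SE 0.32), against 2.21% of all genes. The median was 0.07 for the complexes, with 5 of 21 higher and 4 lower without overlap. It was 0.30 for the demethylases (0.16 to 0.43 over the alternatives), with 5 of 12 higher and 1 lower without overlap, against 13% and 17.6% of all genes. The oligodendrocyte markers had a median of 1.09, which turned to -2.45 without *Setd1a*+/- replicate 1, in the cells where *Setd1a*+/- replicate 1 held most of them (1407 CPM summed) and *Setd1a*+/- replicate 2 fewest (98.3 CPM).

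Lists tied to vessel growth and the cytoskeleton gave isolated values. *Jag1*, a Notch ligand, was at 73.1 and 64.5 CPM (WT) against 81.0 and 138 CPM (*Setd1a*+/-), with a log2 difference of 0.64 (SE 0.27) that was 0.26 without *Setd1a*+/- replicate 2. It was highest in the unnamed subcluster 12 (276 CPM), which held 10.5% of the cells of that library and 3.29 to 4.61% of the others, and the part of this share was not tested. *Plxnd1*, a semaphorin receptor gene, was at 42.3 and 32.9 CPM against 20.9 and 23.7 CPM (-0.75, SE 0.29). *Actb*, encoding a cytoplasmic actin, was at 3837 and 3795 CPM (WT) against 4393 and 9436 CPM (*Setd1a*+/-) (0.89, SE 0.32), with the last library apart from the other 3 and a difference of 0.23 without it. *Actb* was among the leading genes of subcluster 12, at 20435 CPM against 3881 CPM in the other subclusters. The part of that subcluster's share in its level was not tested. *Lcn2*, an acute phase gene, was at 6.04 and 84.9 CPM against 3.86 and 14.6 CPM, and its log2 difference of -2.67 turned to 0.31 without WT replicate 2. Of 15 genes that the study names for cortical endothelial cells, 14 were tested, 0 had an unadjusted p under 0.05, and the median was -0.01.

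**Figure D5:**
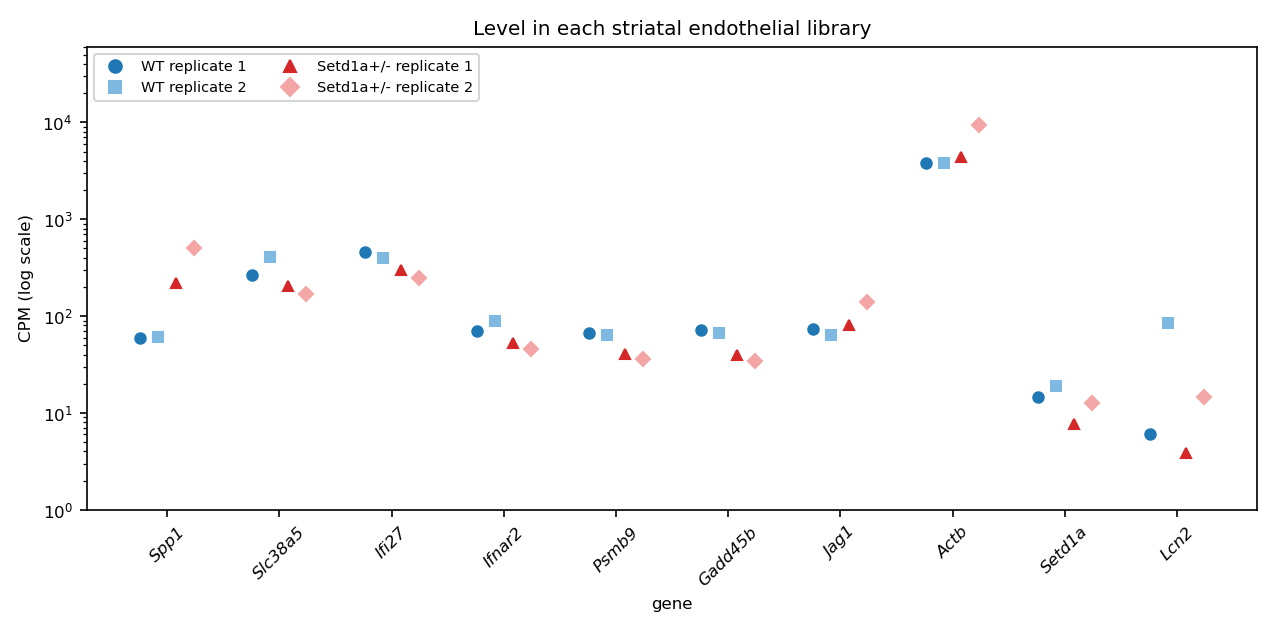
CPM on a log axis (vertical) of 10 genes (horizontal) in the endothelial cells of each of the 4 striatal libraries, a point per library. *Spp1* sits near 60 CPM in both WT libraries and at 220 and 508 CPM in the *Setd1a*+/- libraries, *Slc38a5*, *Ifi27*, *Ifnar2*, *Psmb9* and *Gadd45b* are lower in both *Setd1a*+/- libraries, and *Lcn2* is high in WT replicate 2 alone.

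Whether the genotype difference in endothelial cells departed from that in other striatal types was tested as an interaction with the library as a block. Against astrocytes the p values matched the normal tail of each estimate over its SE, so the spread was effectively shared by all genes. Those p values do not measure the spread of a single gene, and those against microglia also drew mostly on spread shared across genes. Against astrocytes, 14 of 9909 genes (0.141%) passed an FDR of 0.05, 3 with a more positive and 11 with a more negative difference in endothelial cells. Of the 14, 4 were globin genes (*Hba-a1*, *Hba-a2*, *Hbb-bs* and *Hbb-bt*). *Hbb-bs* was at 8839, 13369, 9734 and 7093 CPM in the endothelial cells, and at 34.3, 87.6, 55.2 and 3377 CPM in astrocytes. The difference of the log2 differences was -3.32 (SE 0.53), and it was -0.13 without *Setd1a*+/- replicate 2, which held 31 astrocytes. Against microglia, 5 of 7280 genes (0.0687%) passed. They included the oligodendrocyte genes *Cldn11* and *Mobp* and the chemokine genes *Ccl2* and *Ccl8*. *Setd1a*+/- replicate 2 held 24 microglia. Without a library the counts ran from 2 to 27 against astrocytes (3 and 2 without WT replicate 1 and 2, 27 without *Setd1a*+/- replicate 2) and from 1 to 43 against microglia (1 without WT replicate 1, 22 and 43 without *Setd1a*+/- replicate 1 and 2).

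Endothelial cells of the cortex were the same annotated type in the other tissue, and most genes called between the tissues were highest in other striatal types. Between tissues, 537 of 10136 genes (5.3%) were called in a fit with genotype as a term, 499 higher (4.92%) and 38 lower (0.375%) in striatum. Of the 499, 333 were highest in a neuronal type of the striatum, 106 in the oligodendrocyte lineage, 47 in astrocytes and 12 in endothelial cells, whereas 20.8% of all genes tested were highest in endothelial cells and 39.2% in neuronal types. *Penk*, the enkephalin precursor of D2 MSNs, was at 190, 197, 92.0 and 191 CPM in striatal and at 0 to 2.41 CPM in cortical endothelial libraries. Among cells whose marker UMIs were mostly endothelial (56.3 to 70.6% of striatal and 67.5 to 81.8% of cortical endothelial cells), 113 of 9116 genes (1.24%) were called, 101 higher (1.11%) and 12 lower (0.132%). Without the striatal WT replicate 2 the full comparison called 291 genes. Tissue, dissection and dissociation cannot be told apart here.

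The 12 genes that were higher in striatum and highest in endothelial cells were *Rgs16*, *Map3k6*, *Sod3*, *Slc6a13*, *Saa2*, *Dcn*, *C1qtnf9*, *Stra6*, *Ccl11*, *Rnd1*, *Capn1* and *Nfkb2*. *Stra6*, a receptor for retinol-binding protein, was at 150, 175, 142 and 87.4 CPM in striatal and 26.0, 15.9, 40.6 and 57.9 CPM in cortical endothelial libraries (log2 difference 2.14, SE 0.31, edgeR FDR 0.0016). *Ccl11*, a chemokine gene of mural cells here, was at 10.3, 18.4, 11.6 and 12.7 CPM against 1.00, 0, 1.5 and 0 CPM. *Sod3*, the extracellular superoxide dismutase, was at 80.1 to 143 CPM against 44.6 to 63.9 CPM (1.09, SE 0.20, edgeR FDR 0.0055). The ranges of the tissues did not overlap for *Stra6*, *Ccl11* or *Sod3*. Of the vascular fibroblast list, 2 of 7 genes tested rose, *Dcn* and *Slc6a13*, against 4.92% of all genes.

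Several barrier genes were lower in striatal than in cortical endothelial cells. Of 22 barrier transporters, 3 fell (0.375% of all genes did), 0 rose, and the median log2 difference was -0.48, against -0.00 over all genes. Other lists were lower too, with medians of -0.43 for Wnt genes, -0.30 for endothelial transcription factors, -0.19 for junction genes and -0.11 for endothelial markers. The venous list was at 0.19 and the list of caveolae and vesicle transport at 0.06. Each of these had 0 genes called. *Slc7a1*, the cationic amino acid transporter, was at 257, 189, 264 and 164 CPM in striatal and 490, 449, 470 and 480 CPM in cortical libraries (-1.08, SE 0.17, edgeR FDR 0.0030). *Tfrc*, the transferrin receptor, was at 161, 141, 209 and 85.6 CPM against 435, 317, 319 and 210 CPM (-1.05, SE 0.25, edgeR FDR 0.023), with the highest striatal library just under the lowest cortical one. *Slc16a1*, the lactate transporter, was at 117, 146, 116 and 262 CPM against 312, 329, 383 and 277 CPM (-1.05, SE 0.23, edgeR FDR 0.016). Among the mostly endothelial cells, 0 of the 22 were called at a fold above 2 and the median was -0.41, with *Slc7a1* at -0.94 and *Tfrc* at -0.99. Outside the list, *Ndnf*, which encodes a secreted factor, was at 44.7, 40.8, 43.5 and 45.5 CPM against 209, 127, 108 and 104 CPM (-1.64, SE 0.21, edgeR FDR 0.00089). The genotype difference was not shown to depend on the tissue: 0 of 10652 genes (0%) passed the edgeR interaction test at an FDR of 0.05, with 221 at an unadjusted p under 0.05 and 0 called by DESeq2. With the replicate block the count was 1, *Wfdc17*, a gene of myeloid cells (3.82, SE 0.54, edgeR FDR 0.0117).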

How the data were processed

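Single-cell RNA-seq of 8 pooled-animal libraries was analysed, 2 per genotype in each of striatum and PFC. The authors deposited raw UMI counts per gene and barcode (Cell Ranger 3.0.2, mm10, per the submitters' processing notes) and, as separate deposited columns, the library and cell type of each cell from their Seurat 3.2.0 clustering of cells with at least 800 genes and less than 10% mitochondrial counts. Their expression tables by cell, whose gene column holds row numbers, were not used. Every annotated barcode was found in the matrices. The matrices hold 31053 genes.

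UMI counts were summed per library and cell type. Genotype was compared with edgeR 4.0.16 (R 4.3.3; quasi-likelihood fit without a block; TMM scaling; low genes removed by filterByExpr, min.count 10; Benjamini-Hochberg adjustment over every gene fitted), called at an FDR under 0.05 and a fold change above 2, as the study did in striatum. The SE of a log2 difference was its size divided by the square root of F. Tissue was fitted over all 8 libraries with genotype as a term. Interactions were called at an FDR under 0.05, those between cell types with the library as a block. In the fit against astrocytes all genes effectively shared a common spread. CPM are UMIs per 1000000 within the cells summed. Subclusters came from scanpy 1.11.5 (2000 variable genes, 20 components, Leiden resolution 0.5) and were named only from fixed markers. No doublet caller was run. Ambient RNA was read from barcodes with 1 to 100 UMIs, and thinning drew 1000 UMIs per cell, leaving out shallower cells. Named genes were the lists' members, called genes, the 10 lowest p in each direction without overlap between genotypes (tissue: the 10 lowest p in each direction), and the 20 genes with the largest ratio to any other striatal type at 50 CPM or more in every library. *Notch2*, *Bok*, *Tpm3-rs7* and the other genes called only with a block, the 12 tissue genes highest in endothelial cells, and the genes of the subcluster accounts were chosen after their values were seen. The members and gene lists were chosen with earlier results of these data known.

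Per the methods, each biological replicate gave 1 WT and 1 *Setd1a*+/- library. The replicate numbers were treated as pairs on that ground, and the deviations of same-numbered striatal libraries correlated across 10358 genes (r = 0.351). Nothing else shows that animals of a pair shared a litter or day, and p-values of the main fit measure the spread between pooled libraries. With the block, or without 1 library, the genotype fit had 1 residual degree of freedom and edgeR estimated an infinite prior, so that all genes shared a common spread; those p-values do not measure the spread of a single gene. Alternatives were DESeq2 1.42.0, other scalings and filters, the block, leaving out each library, and subsets of cells; the subsets of vascular subclusters and of mostly endothelial cells were chosen only after the data had been seen. The fits were also run on simulated counts. These held no replicate effect, so the run cannot show how the fits behave where replicates differ. One item is not reported here.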

Additional observations from a re-analysis of the deposited data

Results flagged for a closer look

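Results are listed here because the *Setd1a*+/- difference in the endothelial cells departed from that in another striatal type by the edgeR interaction test (FDR under 0.05). Each value is the log2 difference in endothelial cells minus that in the other type. The test against astrocytes used a spread effectively shared by all genes, so a call there does not measure the spread of its gene. *Setd1a*+/- replicate 2 held 31 astrocytes and 24 microglia, so its CPM in those types rest on few cells.

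Against astrocytes, 3 genes had a more positive difference in endothelial cells, *Mobp* (2.23), *Cartpt* (2.00) and *Mbp* (1.76). *Mobp* and *Mbp* are myelin genes, and *Cartpt* encodes a neuropeptide. *Mbp* was at 144, 95.4, 331 and 51.0 CPM in the endothelial cells and at 139, 147, 99.1 and 63.7 CPM in astrocytes (WT replicate 1 and 2, then *Setd1a*+/- replicate 1 and 2, as in the following).

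A more negative difference was found for the globin genes *Hbb-bt* (-7.10), *Hbb-bs* (-3.32), *Hba-a1* (-4.81) and *Hba-a2* (-4.93). *Hba-a1* was at 3373, 5187, 3572 and 5057 CPM in the endothelial cells, and at 6.87, 10.2, 6.76 and 2941 CPM in astrocytes, where *Setd1a*+/- replicate 2 alone was high.

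The other genes with a more negative difference were *Klf4* (-3.38), *Sncg* (-3.0), *Anxa11* (-2.30), *Gas6* (-1.73), *Odc1* (-1.57), *Cd24a* (-1.52) and *Ivns1abp* (-1.43). *Klf4*, a flow-responsive transcription factor gene, was at 715, 633, 828 and 679 CPM in the endothelial cells and at 5.15, 0, 32.7 and 53.1 CPM in astrocytes. *Gas6*, a ligand of TAM receptors, was at 79.1, 70.4, 55.1 and 49.2 CPM in the endothelial cells against 73.8, 63.2, 144 and 265 CPM in astrocytes. In all 7 of these genes both *Setd1a*+/- astrocyte libraries lay above both WT ones. The genes were chosen by a test that favors this order, and how many of all genes had it was not counted. The cells annotated astrocytes also held ependymal markers, summed to 1283, 793, 1933 and 3154 CPM. Their astrocyte markers summed to 15848, 17335, 14471 and 9047 CPM. The part of this make-up in the levels of the 7 genes was not tested. *Anxa11*, encoding an annexin, was at 64.6, 67.1, 63.4 and 45.5 CPM in the endothelial cells and 27.5, 20.4, 101 and 149 CPM in astrocytes.

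Against microglia, the differences included 5.33 for *Cldn11*, 3.12 for *Mobp*, 4.24 for *Ccl2* and -8.19 for *Ccl8*. *Ccl8*, a chemokine gene, was at 3.02, 0.658, 0 and 0 CPM in the endothelial cells and 29.4, 0, 406 and 0 CPM in microglia, so its level in *Setd1a*+/- replicate 1 stood alone. When each library was left out in turn, the call of *Hbb-bt* held in 3 of 4 fits and that of every other gene named here in at most 2.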

How the results depend on the processing

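The genotype count was 0 under edgeR and remained 0 with library sizes alone, RLE factors, a minimum count of 1, endothelial-like subclusters, vascular subclusters, cells under 3 times the median UMIs, thinned cells, and without mitochondrial, ribosomal protein and hemoglobin genes. It was 1 with DESeq2, 19 with no filter, 25 with the replicate block and 2 with equal numbers of cells per library. Leaving out 1 library gave 8 to 102, where the lone sample is assumed to vary like the other genotype. The block and leave-one-out fits gave all genes a common spread, so their counts say nothing about stability. The spread of the no-filter fit was not examined, and its lowest edgeR FDR of 2.4e-33 calls for the same caution. Among the genes named by their p, in a list or called with the block, 5 turned direction, with leave-one-out estimates of -3.54 to 0.31 for *Lcn2*, -0.016 to 2.38 for *Bhlhe41*, -2.45 to 2.01 for *Mobp*, -1.30 to 4.12 for *Tpm3-rs7* and -0.69 to 1.85 for *Trf*, and 40 leave-one-out and 38 other estimates newly passed the test. The log2 difference of the endothelial share (-0.03) was 0.37 among non-neuronal types, -0.09 with the block, and -0.49 to 0.31 without a library. The tissue count of 537 was 158 in thinned cells, 113 in mostly endothelial cells, 777 with the replicate block, 758 at a minimum count of 1 and 291 to 521 without a striatal library. The tissue by genotype count was 0 and 1 with the block. The interaction count of 14 against astrocytes was 31 with library sizes alone and 2 to 27 without a library, and that of 5 against microglia was 12 and 1 to 43. Leave-one-out estimates ran from -7.73 to 0.047 for *Hba-a1*, -10.01 to 0.19 for *Hba-a2* (astrocytes), -0.38 to 3.75 for *Mobp* and -0.23 to 5.35 for *Ccl2* (microglia). The block ended no call of a named gene for tissue. Endothelial-like subclusters held 38.0% of the cells, 40.2% at a resolution of 1.0 and 31.3% on 10 components. The cause of these changes was not tested. Depth was least in *Setd1a*+/- replicate 2 (238 cells, 549145 UMIs).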

Other observations

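Among genes that differed between striatal and cortical endothelial cells, several moved with the replicate number as well. *Rpl10-ps3*, named as a pseudogene of a ribosomal protein gene, was at 153, 19.9, 165 and 12.1 CPM in cortical and 21.7, 11.2, 24.2 and 16.4 CPM in striatal libraries (WT replicate 1 and 2, then *Setd1a*+/- replicate 1 and 2), so the cortical replicate 1 libraries of both genotypes stood above the other 6. *Gm11361* followed the same order, at 131, 14.6, 147 and 14.5 CPM against 8.46, 17.8, 13.8 and 9.11 CPM. Counts of *Rpl10-ps3* are uncertain, since near-identical copies share reads.

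*Pfn1*, which encodes the actin-binding protein profilin, was at 204, 544, 175 and 433 CPM in striatal and 29.6, 96.7, 24.8 and 89.2 CPM in cortical endothelial cells, with replicate 2 the higher in each genotype and tissue. The metallothionein genes *Mt1* and *Mt2*, which bind zinc and copper, were higher in every striatal library, *Mt1* at 1389, 1710, 1224 and 1502 CPM against 797, 587, 225 and 514 CPM, and *Mt2* at 439, 631, 433 and 395 CPM against 268, 127, 54.8 and 118 CPM. Both were highest in astrocytes among the striatal types, at 10587 and 3469 CPM.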
